A study of Mus musculus with 4 samples.

Results

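Plasmacytoid dendritic cells (pDC) of the tumour-draining lymph node were taken from raw counts of unique molecular identifiers (UMIs, the tags that mark single captured mRNA molecules). Barcodes entered only if 300 or more genes were detected and mitochondrial genes gave no more than 10% of the UMIs. The pDC among them were chosen by their own counts of marker genes: a cell held no UMI of Cd3e (a T cell receptor chain) or Cd79a (a B cell receptor chain), at least 2 UMIs of Siglech, and at least 1 UMI each of at least 2 of Klk1, Cox6a2, Pacsin1, Tcf4 and Runx2. This gave 59 of 26096 kept barcodes, from 30824 in all. The values of these 8 genes chose the cells, so they and every other gene of the same cells are given as descriptions, with no test.

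The mice were C57BL/6J and carried B16F10 melanoma, a transplantable mouse tumour line, in both thighs. The 2 control mice received no treatment. The 2 treated mice drank indoximod, a drug aimed at the indoleamine 2,3-dioxygenase (IDO) pathway, at 2 mg/ml from day 9 and received 350 ug of ibrutinib, an inhibitor of Bruton's tyrosine kinase (BTK), each day. They were also given cyclophosphamide, an alkylating drug, at 150 mg/kg on day 10, and inguinal nodes of all mice were collected 48 h later and profiled with 10x 3' chemistry. Barcodes carry a library number from 1 to 4 that the tables used here do not tie to a mouse or group. Treated against control is therefore not analysed here, and the libraries are given one by one.

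pDC are sentinel cells that sense viral nucleic acids in endosomes through Toll-like receptors and can secrete very large amounts of type I interferon. Their identity rests on the E protein transcription factor TCF4 (E2-2), which in conventional dendritic cells is held in check by ID2, and on RUNX2, IRF8, SPIB and BCL11A. In mice they are recognised by the lectin Siglec-H, by BST2 and by Ly6C, and they enter nodes from the blood through high endothelial venules.

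Promoter sequences are shown for 4 genes whose RNA marked these cells and whose promoter holds CACCTG, an E-box of the kind that E proteins such as TCF4 are known to bind. They were picked for that match from 13 such genes with an entry, of which Pacsin1, Runx2, Klk1b27, Klra17, Upb1, Atp1b1, Pir and Kmo held none of the motifs searched outside exons and Slamf9 held CAGCTG only. All are from RefSeq on the build GRCm38.p6, 5′ to 3′ on the gene's strand, up to 250 bases before the RefSeq start with exonic bases left out. Capitals mark CACCTG or its reverse complement CAGGTG, and in Cd300c also a pair of GAAA repeats with 2 bases between them, the core of an interferon-response element. Siglech, a sialic-acid binding receptor (gene at chr7:55768178-55778925, plus strand), is shown by chr7:55767934-55768177. Klk1, a secreted serine protease of the kallikrein family (chr7:44225360-44229618, plus strand), is shown by chr7:44225110-44225359. Ccr9, a chemokine receptor (chr9:123678439-123784330, plus strand), is shown by chr9:123766961-123767168. Cd300c, an activating receptor of myeloid cells (chr11:114956116-114969157, minus strand), is shown by chr11:114960508-114960757.
Siglech: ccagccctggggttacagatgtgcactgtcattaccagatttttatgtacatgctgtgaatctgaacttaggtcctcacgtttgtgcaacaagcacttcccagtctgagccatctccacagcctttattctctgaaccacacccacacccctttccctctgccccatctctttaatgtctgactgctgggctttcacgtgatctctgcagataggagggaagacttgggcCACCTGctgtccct
Klk1: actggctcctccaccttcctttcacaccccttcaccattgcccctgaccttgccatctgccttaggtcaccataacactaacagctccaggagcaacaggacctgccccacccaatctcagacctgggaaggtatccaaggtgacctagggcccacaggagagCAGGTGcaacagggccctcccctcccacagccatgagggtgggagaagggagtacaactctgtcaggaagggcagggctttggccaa
Ccr9: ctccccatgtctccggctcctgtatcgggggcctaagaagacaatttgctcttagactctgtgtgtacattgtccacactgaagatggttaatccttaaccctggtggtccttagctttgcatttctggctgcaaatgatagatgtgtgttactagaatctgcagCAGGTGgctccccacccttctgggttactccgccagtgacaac
Cd300c: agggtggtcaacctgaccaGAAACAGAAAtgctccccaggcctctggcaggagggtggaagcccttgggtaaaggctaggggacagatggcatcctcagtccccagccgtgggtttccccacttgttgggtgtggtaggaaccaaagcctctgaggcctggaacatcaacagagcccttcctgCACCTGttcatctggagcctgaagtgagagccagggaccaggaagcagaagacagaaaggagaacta

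Of 2188 genes compared with all 3 classes described further on, 132 were higher in pDC than in each (6.03%), and 106 of these matched a promoter. The 132 include gate genes, among them Siglech and Klk1 shown above, so the shares are a description. CACCTG, on either strand, was present in 20 of the 106 (18.9%). It was present in 13.4% of the 1742 matched promoters of genes compared in all 3 classes and in 17.1% of all 27025 promoters, each searched over the full 250 bases before the start. The other E-box CAGCTG, a palindrome, was in 8 of the 106 (7.55%), in 8.84% of the promoters of genes compared in all 3 classes and in 12.8% of all promoters. GAGGAAGT, an ETS-family site of the SPIB and PU.1 type, was in 6 of the 106 (5.66%), against 2.87% and 2.44%. The pair of GAAA repeats, on either strand, was also in 6 (5.66%), against 3.79% and 3.04%. These are matches of letters in 250 bases and not sites, and Cox6a2, Cd8b1 and Lag3 had no entry.

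The libraries held 39589629, 39733183, 40339336 and 53643414 UMIs in 7002, 6978, 7013 and 9831 barcodes. The 59 pDC held 499255 UMIs, with a median of 8502 UMIs per cell (range 1373 to 19992) and a median of 2644 genes. Barcode sequences were shared between libraries by 172 of 30824 barcodes and by 0 pDC. Scrublet called 927 of 26096 kept barcodes doublets (3.55%) and called 0 pDC. The intervals are 95% intervals and cover counting error only. No p-value is given, since no groups could be compared.

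Siglech was at exactly 2 UMIs in 3 pDC, at 3 in 2 and at 4 in 4, whereas 50 pDC had at least 5. All 5 of the other genes were detected in 27 pDC, 4 of them in 15, 3 in 10 and only 2 in 7. Just outside lay 4 barcodes with a single Siglech UMI and 6 with Siglech but only 1 of the other genes, and 8 had at least 2 Siglech UMIs and none of the others. A further 18 barcodes met the rule except for a UMI of Cd3e (11) or Cd79a (7). They came from libraries 1 to 4 as 8, 8, 1 and 1, with a median of 14915 UMIs, above the median of the pDC, and Scrublet called 0 of them doublets.

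The label was held against markers outside the rule, and 8 of the 59 cells were set apart by Siglech or Fscn1. A main body of 51 cells had Siglech at 1000 counts per 1000000 (CPM) of its own UMIs or more, and in it Bst2 was detected in 50 cells, Ccr9 in 50, Irf8 in 50, Ly6d in 49 and Atp1b1 in 49. In 7 cells Siglech was between 100 and 488.7 CPM of their own UMIs although they held 8859 to 19992 UMIs. They were spread over libraries 1 to 4 as 2, 3, 1 and 1. Among these 7 cells Klk1 was detected in 0, Ly6d in 2 and Cox6a2 in 1, and myeloid genes were frequent, as described further on. The remaining cell, from library 4, held 18 UMIs of Fscn1, an actin-bundling protein of migrating mature dendritic cells. The main body itself was not uniform. In it 1 cell each of libraries 2, 3 and 4 was shallow, with 3140, 1573 and 2220 UMIs. Siglech was high in them, at 7962, 5086 and 8559 CPM of their own UMIs. Yet they held only 4, 0 and 1 UMIs of Bst2, 5, 0 and 0 of Ly6d and 2, 0 and 0 of Tyrobp. The split was drawn after the values were seen, so it was not tested. Values include the 8 cells unless stated.

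pDC made up 21 of 5667 kept barcodes in library 1, or 0.371% (exact Clopper-Pearson interval 0.230 to 0.566). The share was 0.295% in library 2 (17 of 5758, 0.172 to 0.472) and 0.205% in library 3 (13 of 6335, 0.109 to 0.351). It was 0.0960% in library 4 (8 of 8336, 0.0414 to 0.189). The intervals of libraries 1 and 4 did not overlap, whereas those of neighbouring libraries did. The main body alone was 0.335%, 0.243%, 0.189% and 0.0720% of libraries 1 to 4, in the same order. Library, mouse and treatment cannot be told apart in these shares. Cells that were not captured and cells that were absent cannot be told apart either.

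**Figure D1:**
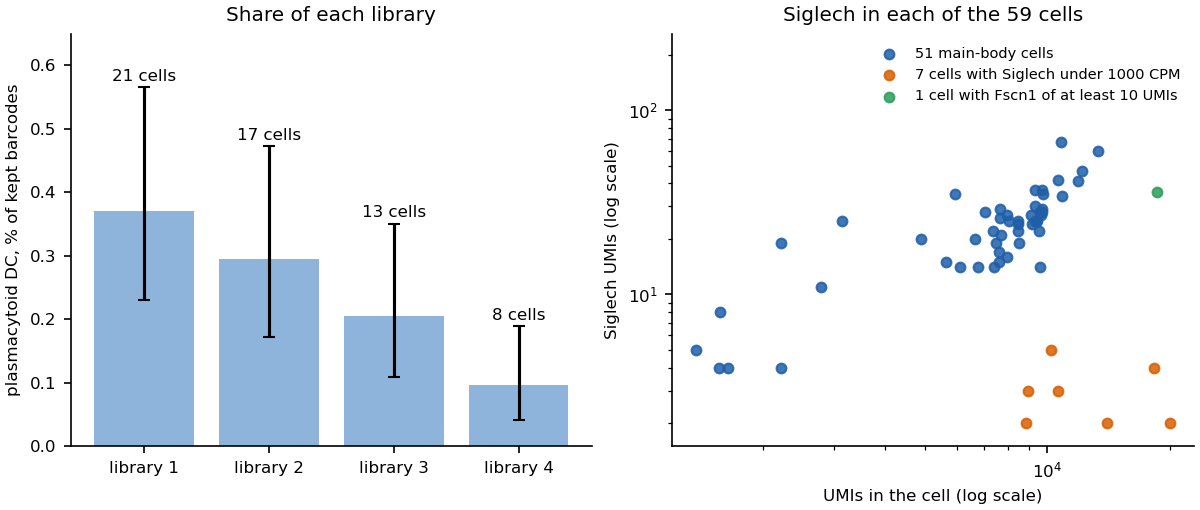
Left, pDC as percent of kept barcodes in each library, bars from 0 with exact 95% intervals and the cell number above each. Right, Siglech UMIs against all UMIs of each of the 59 cells, both axes logarithmic; 7 cells lie below the main body with 2 to 5 Siglech UMIs, and 1 cell (library 4) had Fscn1 of at least 10 UMIs.

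For comparison, 3 other classes were gated from the same libraries. These were 27 type 1 conventional dendritic cells (cDC1; at least 2 of Xcr1, Clec9a, Tlr3 and Cadm1), 72 monocyte and type 2-like cells (Lyz2 with at least 2 of Csf1r, Ccr2, Ms4a6c, Cd209a and Cybb) and 8834 B cells (Cd79a with Ms4a1). Siglech was required to be absent from all 3. Levels are CPM of all UMIs of a class. A gene could be compared in a library that held 10 or more of its counts over both classes. It was called higher or lower in pDC when 3 or more libraries could be compared and each showed a ratio of 1.5 or more one way. A library in which 1 of the classes held no UMI of the gene counted as past that ratio. The 3 comparisons share the same pDC counts and the classes were cut from the same data, so the calls describe these cells and test nothing.

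Against cDC1, 340 of 2237 genes were higher in pDC (15.2%) and 124 were lower (5.54%). Against monocyte and type 2-like cells 311 of 3538 were higher (8.79%) and 470 lower (13.3%). Against B cells 970 of 10855 were higher (8.94%) and 1566 lower (14.4%). With TMM scaling, which moved the ratios to B cells by a median of 0.43 on the log2 scale, the last split became 640 higher and 2175 lower. Of 2188 genes compared in all 3, 132 were higher in each (6.03%) and 6 were lower in each (0.274%).

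Transcription factors of the pDC programme were high in these cells, and the factor that opposes TCF4 was near its floor. Of 18 listed factors 16 could be compared with cDC1, of which 10 were higher and 1 lower. Against monocyte and type 2-like cells 9 were higher and 1 lower, and against B cells 10 of 17 were higher and 2 lower (6 and 2 with TMM scaling). The median log2 difference of the list was 2.04, 2.03 and 1.17 against cDC1, monocyte and type 2-like cells and B cells, and that of all genes compared was 0.13, -0.04 and 0.29. The list includes Tcf4 and Runx2, which the gate itself used.

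Tcf4 was detected in 58 of 59 pDC at 1921 CPM (1801 to 2046), from 1414 CPM in library 3 to 2185 CPM in library 2. Irf8, a factor shared with cDC1, was at 2632 CPM (2492 to 2778), with 2600, 2430, 2961 and 2633 CPM by library. It was 9.97-fold higher than in monocyte and type 2-like cells and 8.25-fold higher than in B cells. Against cDC1, which held 1722 CPM, it was 1.53-fold higher and was not called, because the ratio was below 1.5-fold in at least 1 library. Its lowest pDC library, at 2430 CPM, was nevertheless above the highest cDC1 library, at 2274 CPM.

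Bcl11a, a zinc-finger factor of lymphoid cells and pDC, was at 677 CPM (607 to 753), from 468 CPM in library 3 to 833 CPM in library 2. It was 7.64-fold higher than in monocyte and type 2-like cells and 1.90-fold higher than in B cells, where it was not called. Spib, an ETS-family factor, was at 194 CPM (158 to 237) and was not called against B cells, which held 136 CPM. Both factors are known from the B lineage as well as from pDC. Zeb2, a repressor needed for pDC development, was at 597 CPM, 8.70-fold higher than in cDC1 and 9.42-fold higher than in B cells, and monocyte and type 2-like cells held 763 CPM. Tsc22d1, a leucine-zipper factor, was at 238 CPM and was called higher against all 3 classes, 7.22-fold against monocyte and type 2-like cells and 38.2-fold against B cells.

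Id2 was at 182.8 CPM in library 4, at 10.6 CPM in library 1 and at 0 UMIs in libraries 2 and 3, against 766 CPM in cDC1. Of its 17 UMIs in pDC, 82.4% came from the Fscn1 cell of library 4, and without that cell the level was 6.24 CPM. Batf3, the cDC1 factor, was held by 3 UMIs in 2 cells, against 213 CPM in cDC1. Of 12 listed conventional dendritic cell factors only Id2 and Batf3 could be compared with cDC1, and both were lower in pDC.

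**Figure D2:**
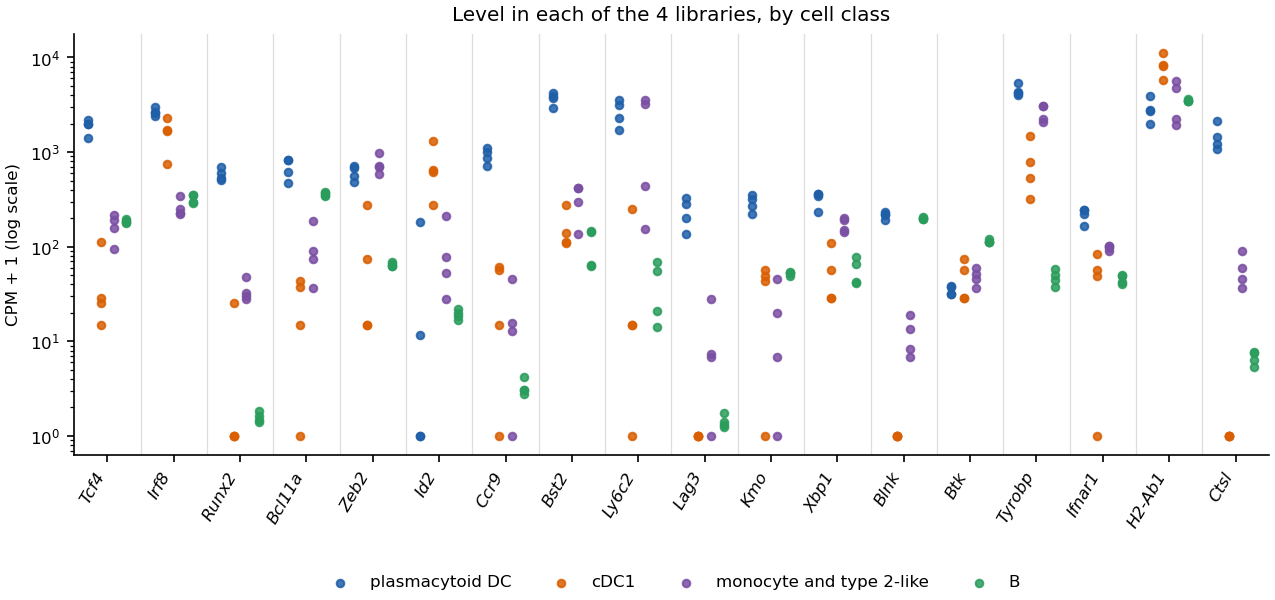
Level of 18 genes in each of the 4 libraries (1 point per library) in pDC, cDC1, monocyte and type 2-like cells and B cells, as CPM + 1 on a log axis; a point at 1 is a level of 0. Tcf4, Runx2, Ccr9, Bst2 and Ctsl in pDC lie above every point of the other classes, and so do those of Irf8, though only just above cDC1, whereas H2-Ab1 in pDC lies below cDC1.

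Surface receptors set pDC apart widely. Of 27 listed receptor genes 25 could be compared with cDC1 and 19 were higher. Against monocyte and type 2-like cells 18 of 24 were higher, and Ptprc (CD45) and Itgax (CD11c) were lower. Against B cells 23 of 26 were higher (20 with TMM scaling), and 0 of 26 were lower. Siglech is among these genes, and the gates fixed its call. The median log2 difference was 4.70, 2.94 and 5.89, against 0.13, -0.04 and 0.29 for all genes compared.

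Bst2 (tetherin), which holds budding virus at the membrane and is the antigen of the pDC antibody PDCA-1, was at 3754 CPM (3586 to 3927). Its libraries held 3882, 3706, 4243 and 2949 CPM, all above every library of the other classes. The folds were 26.6 against cDC1, 11.4 against monocyte and type 2-like cells and 35.9 against B cells. Ccr9, which guides cells to the gut and thymus along CCL25, was at 941 CPM (858 to 1030), with 1111, 718, 865 and 999 CPM by library, and was detected in 54 of 59 pDC. It was 24.7-fold higher than in cDC1, 60.2-fold than in monocyte and type 2-like cells and 405-fold than in B cells. In the CD4 T cell gate, where a median cell held 5894 UMIs, 2.70% of 3073 cells had a Ccr9 UMI.

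Ly6c2, which encodes a Ly6C antigen, was at 2512 CPM, with 2303, 1704, 3154 and 3510 CPM in libraries 1 to 4. It was 59.9-fold higher than in cDC1 but was not called against monocyte and type 2-like cells, which held 1961 CPM. Ly6C thus separated pDC from cDC1 and from B cells (64.5-fold) and not from the monocyte gate. Ly6d, a GPI-anchored antigen of lymphoid progenitors, was at 2810 CPM and was 1.56-fold higher than in B cells, where it was not called.

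Several receptors with an inhibitory or T cell name were also present. Lag3, an inhibitory receptor that binds MHC class II, was detected in 41 of 59 pDC at 244 CPM (203 to 292), with 282, 199, 326 and 134 CPM by library. It had 0 UMIs in cDC1, which makes the ratio at least 21.4-fold against a floor of 3 counts over that class, and it was 28.1-fold higher than in monocyte and type 2-like cells. A Lag3 UMI was found in 2.47% of CD4 T cells and 0.147% of B cells. Cd7, an immunoglobulin-family receptor of T cells and of human pDC, was at 302.5 CPM, 11.6-fold higher than in monocyte and type 2-like cells and 200-fold higher than in B cells. Klra17, a Ly49-family lectin, was at 136 CPM with 0 UMIs in cDC1 and in 8834 B cells, so that its ratio to cDC1 was at least 11.9-fold. Cd300c was at 278 CPM in 51 of 59 cells with 0 UMIs in cDC1 (at least 24.4-fold). Lifr, the leukaemia inhibitory factor receptor, was at 204 CPM and 13.1-fold higher than in monocyte and type 2-like cells.

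Cd4 and Cd8a were each detected in a part of the pDC, at a median of 1 and 0 UMIs per cell. Cd4 UMIs were in 34 of 59 cells (57.6%, 44.1 to 70.4) and Cd8a UMIs in 16 (27.1%, 16.4 to 40.3), against 0.815% and 1.48% of B cells with a median of 3902 UMIs. Both were found in 11 cells, Cd4 alone in 23, Cd8a alone in 5 and neither in 20. Cells without a Cd4 UMI were shallower, with a median of 7618 against 9437 UMIs, and the part of depth in these counts was not tested. Cd8a was held by 1, 9, 1 and 5 cells of libraries 1 to 4 and by 5.32, 138, 61.1 and 171 CPM, so that libraries 1 and 3 were low in the number of positive cells. After thinning to 1500 UMIs a cell, Cd4 was in 24.1% and Cd8a in 8.62% of 58 pDC, and the B cell shares were 0.240% and 0.502%.

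Cd8b1, the beta chain of the CD8 co-receptor, was in 26 of 59 pDC at 337 CPM (288 to 391), with 298, 107, 417 and 695 CPM by library. It was called higher against all 3 classes, 33.9-fold against B cells, and 11.2% of CD4 T cells held a UMI. The CD8 beta chain was therefore found in more of these cells than the alpha chain. The T cell genes Cd3d and Cd5 had 0 UMIs in pDC. The 10 listed T cell markers summed to 152 CPM against 6587 CPM in CD4 T cells, from 40.7 CPM in library 3 to 597 CPM in library 4. In the main body the sum was 77.0 CPM. The rule left out cells with a Cd3e UMI, so the low level of T cell RNA was partly set by the choice of cells.

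Accessory genes long used to tell pDC apart, among them the gate genes Klk1, Cox6a2 and Pacsin1, formed a list of 24 measured genes. Of 18 that could be compared 14 were higher than in cDC1 and 14 higher than in monocyte and type 2-like cells. Against B cells 17 of 20 were higher, and with TMM scaling 17 were higher and 1 lower. Klk1 stood at 399, 214, 1201 and 244 CPM in libraries 1 to 4, with UMIs in 37 of 59 cells, each of them in the main body. Library 3 was high in Klk1, with up to 34 UMIs in 1 cell. Reads of Klk1 and its neighbour Klk1b27 (144 CPM, 21 cells), a near-identical kallikrein gene, may not be fully separable, so both levels are uncertain.

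Cox6a2, a subunit of cytochrome c oxidase otherwise known from heart and skeletal muscle, was at 1111, 955, 1262 and 512 CPM in libraries 1 to 4. It was in 45 of 59 pDC, in 0.0976% of CD4 T cells and in 0 cells of the cDC1 and monocyte gates. It was the only one of 12 compared oxidase subunits that was called in any direction in any of the 3 comparisons. Cox6a2 is also the only one of them that the rule used, so this contrast was partly set by the choice of cells. Its ubiquitous counterpart Cox6a1 was at 202 CPM against 201 CPM in B cells, and was 1.66-fold lower than in cDC1 without being called. The muscle subunit was thus present beside the ubiquitous one.

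Upb1, a beta-ureidopropionase of pyrimidine breakdown, was at 298 CPM and 242-fold higher than in B cells. Mctp2, a calcium-binding membrane protein, was at 212 CPM, 26.8-fold higher than in B cells and at 0 UMIs in cDC1 and in monocyte and type 2-like cells. Rnase6, an antimicrobial ribonuclease, was at 1356 CPM in 58 of 59 cells, with 1329, 1200, 1587 and 1389 CPM by library. Smim5, a small membrane protein, was at 437 CPM against 22.6 CPM in monocyte and type 2-like cells.

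Marks of the lymphoid lineage were present as RNA. Dntt, the terminal transferase of antigen-receptor rearrangement, was in 25 of 59 pDC at 122 CPM (93.5 to 157), with 207, 53.5, 112 and 48.8 CPM by library. It had 0 UMIs in cDC1 and in monocyte and type 2-like cells and was in 0.0566% of B cells and 2.64% of CD4 T cells. Iglc3, a lambda light-chain constant gene, was in 46 of 59 pDC at 707 CPM and in 2.54% of CD4 T cells, against 997 CPM in B cells. It was below B cells in all 4 libraries and was called lower with TMM scaling. Igkc, the kappa chain that most mouse B cells carry, was by contrast in 59.3% of pDC and 18.5% of CD4 T cells and was 26.4-fold lower than in B cells. Lambda and kappa RNA therefore did not stand in the ratio that they have in B cells.

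The B cell markers beside this were partly present. Ighm was in 57 of 59 pDC, 61.7% of CD4 T cells and 66.7% of cDC1, and was 2.35-fold lower than in B cells. Cd79b was in 33.9% of pDC and 8.30% of CD4 T cells, and Pax5 and Ebf1 had 0 UMIs. The 10 listed B cell markers, which include Ms4a1 of the B cell gate, summed to 1238 CPM in pDC against 15843 CPM in B cells. They held 890 to 1446 CPM in pDC over the 4 libraries. The rule left out cells with a Cd79a UMI, so these values were partly set by the choice of cells. Their part in the Iglc3 level was not tested beyond these values.

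**Figure D3:**
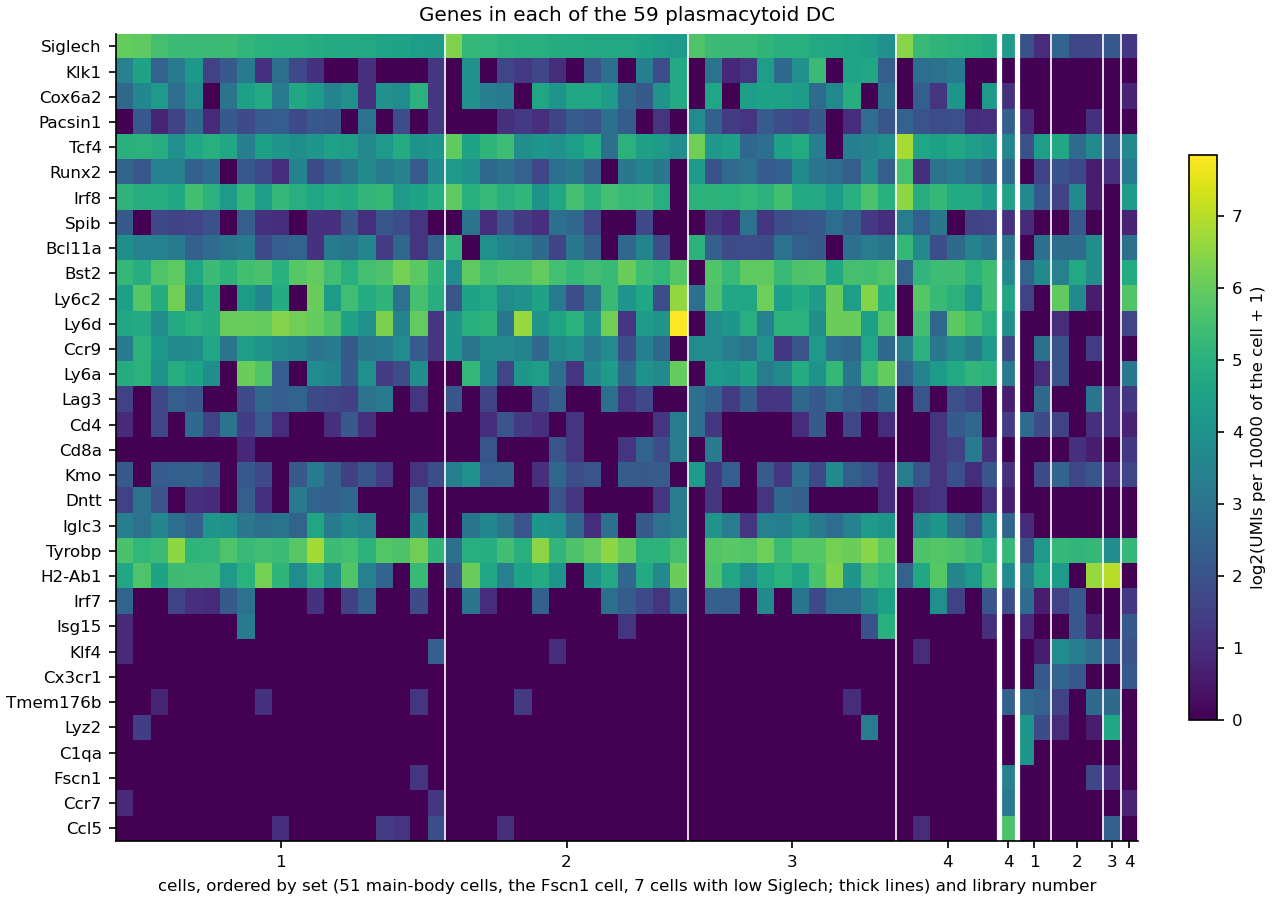
UMIs of 32 genes in each of the 59 pDC as log2(UMIs per 10000 of the cell + 1), cells in columns ordered by set and library. Irf8, Bst2 and Tcf4 are each in 50 of the 51 main-body cells; the 7 low-Siglech cells at the right lack Klk1 and Dntt, and 6 of them hold Klf4; the Fscn1 cell of library 4 holds Ccr7 and Ccl5.

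Kmo, the kynurenine 3-monooxygenase that acts downstream of IDO in tryptophan breakdown (chr1:175620381-175662116, plus strand), was the gene of its list called higher against all 3 classes. It was in 50 of 59 cells at 292 CPM (247 to 344). Libraries 1 to 4 held 271, 352, 315 and 219 CPM. The fold was 6.98 against cDC1, 18.7 against monocyte and type 2-like cells and 5.71 against B cells. A Kmo UMI was in 0.586% of CD4 T cells and 19.8% of B cells, and after thinning in 32.8% of pDC, 7.29% of B cells and 0.0978% of CD4 T cells. All 4 libraries of pDC lay above all libraries of the other classes.

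Of 15 genes listed for tryptophan breakdown and the aryl hydrocarbon receptor 8 had a UMI in pDC. Against B cells 2 of 11 compared were higher, Kmo and Kynu, and 3 were lower, Tdo2, Afmid and Kyat3. Over all genes 8.94% were higher and 14.4% lower. The list's median log2 difference to B cells was 0.25, against 0.29 for all genes compared. Kynu, the kynureninase that splits kynurenine and 3-hydroxykynurenine, was at 74.1 CPM in 27 cells and was called higher against B cells only (3.32-fold). Ido1 and Ido2, which encode the IDO enzymes upstream of Kmo, had 0 UMIs among 499255, which allows up to 6.01 CPM each. Il4i1, an oxidase of aromatic amino acids, was at 90.1 CPM, with 45 UMIs in 6 cells, but the main body held only 2 of them (5.13 CPM). Ahr, the receptor for kynurenines, had 5 UMIs in 3 cells. The RNA of the IDO enzymes was not detectable at this depth, and neither was it in cDC1 or in monocyte and type 2-like cells, each at 0 UMIs.

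Genes of endosomal nucleic acid sensing were detected, 22 of 24 with a UMI. Of the 24 listed genes 9 could be compared with cDC1, and 3 were higher and 1 lower. Against monocyte and type 2-like cells 1 of 17 was higher and 1 lower, and against B cells 9 of 23 were higher and 2 lower (4 and 2 with TMM scaling). Over all genes 15.2%, 8.79% and 8.94% were higher in these comparisons, so the count against monocyte and type 2-like cells is near the background. The list's median log2 difference was 0.64, -0.15 and 0.99. Tlr7, which senses single-stranded RNA, was in 26 of 59 pDC at 86.1 CPM (62.3 to 116), with 69.1, 122, 71.2 and 85.3 CPM by library. It was 3.27-fold higher than in B cells, where the call was lost with TMM scaling, and monocyte and type 2-like cells held 81.7 CPM. Tlr9, the DNA sensor, had 4 UMIs in 4 cells. Tlr3, the double-stranded RNA sensor of cDC1, had 0 against 149 CPM in cDC1, whose gate could use it.

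Tlr12, a receptor for parasite profilin, was at 38.1 CPM in 12 cells and was 39.9-fold higher than in B cells. Unc93b1, the chaperone that carries these receptors to endosomes, was at 485 CPM and was called in no comparison. Pld4, an exonuclease that trims endosomal nucleic acids, was at 591 CPM (525 to 662) with 617, 520, 631 and 597 CPM by library. It was 2.67-fold higher than in cDC1 and 9.74-fold higher than in B cells. Ctsb, a cysteine protease of the endolysosome, was at 1140 CPM, 9.35-fold and 29.2-fold higher than in the same classes. Of the cytosolic sensors 4 of 7 were lower than in monocyte and type 2-like cells, against 13.3% of all genes. Against B cells 2 of 10 were lower, near the 14.4% of all genes, and nothing is read from that count. The list's median log2 difference to these classes was -1.84 and 0.45, against -0.04 and 0.29 for all genes compared. The only sensor compared with cDC1, Tmem173 (STING), was 4.21-fold higher. Among those lower than in monocyte and type 2-like cells, Zbp1 was at 24.04 against 307.5 CPM and Ddx58 (RIG-I) at 10.0 against 120 CPM.

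No interferon RNA was found. All 20 type I and III interferon genes of the list had 0 UMIs, which allows up to 6.01 CPM for each gene, and Il6, Tnf, Il12a, Il10, Ccl3 and Gzmb had 0 as well. Interferon-response genes were lower than in the monocyte gate. Of 25 compared, 14 were lower and only Bst2 was higher, with a median log2 difference of -2.17 against -0.04 for all genes compared. Against B cells 9 of 34 were lower and 7 higher (13 and 3 with TMM scaling), and against cDC1 1 of 13 was lower and 4 higher. Over all genes 14.4% were lower and 8.94% higher against B cells, and 5.54% and 15.2% against cDC1. The list's median log2 difference was -0.44 against B cells and 0.96 against cDC1, where that of all genes compared was 0.29 and 0.13.

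Ifit3 and Rtp4, both typical interferon-induced genes, had 0 UMIs in pDC against 313 and 199.8 CPM in monocyte and type 2-like cells. These are at least 52.0-fold and at least 33.2-fold differences against a floor of 3 counts. Ifitm3, which blocks viral entry, was at 148 against 3243 CPM (21.9-fold lower). Isg15, a ubiquitin-like modifier, was at 63.8, 38.2, 315 and 73.1 CPM in libraries 1 to 4. Its 54 UMIs came from 10 cells and 53.7% of them from 1 cell of library 3, without which the level was 51.1 CPM. The same cell gave 14.7% of the UMIs of Irf7, the amplifier of interferon transcription, which was at 170, 145, 631 and 280 CPM by library. Library 3 was high in Irf7. Its Isg15 level rested on that cell, which held 29 UMIs, beside 2 UMIs in another cell. Irf7 was 3.15-fold higher than in B cells, a call lost with TMM scaling.

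**Figure D4:**
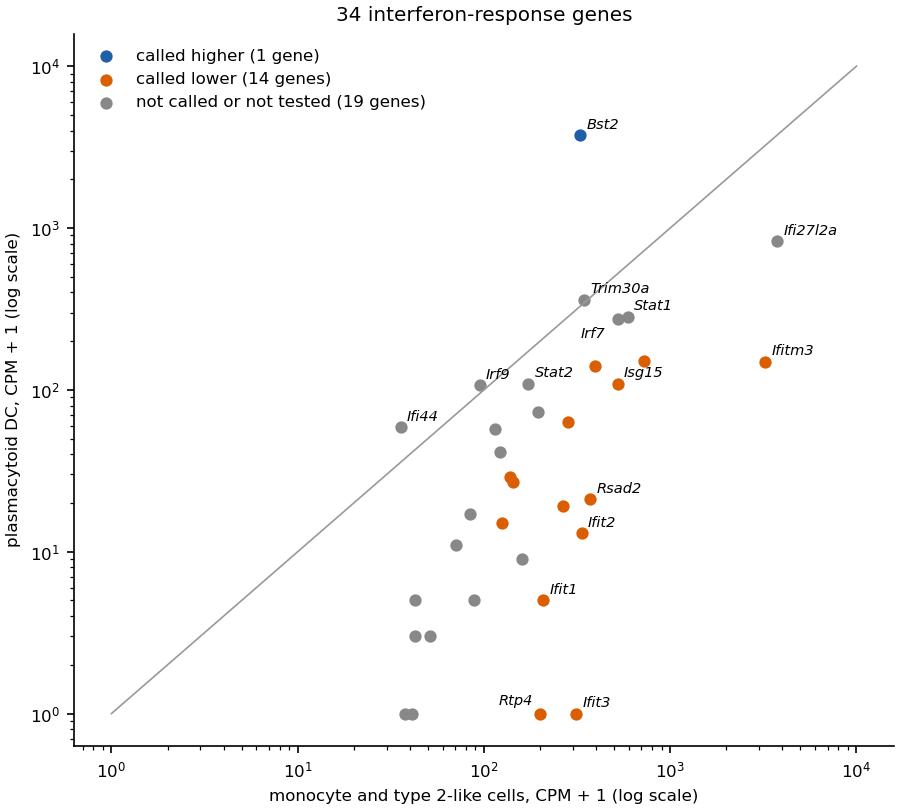
CPM + 1 of 34 interferon-response genes in pDC (vertical) and in monocyte and type 2-like cells (horizontal), both axes logarithmic, with the line of equal level. Bst2 lies above the line and 14 called genes lie below it; Ifit3 and Rtp4 had 0 UMIs in pDC.

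The receptors that bind type I interferon were higher. Ifnar1 was at 210 CPM (172 to 255), with 165, 245, 244 and 219 CPM by library, and was called against all 3 classes (5.02-fold, 2.16-fold and 4.71-fold). Ifnar2 was at 270.4 CPM, with 250, 298, 265 and 280 CPM, and was 4.43-fold, 1.95-fold and 9.67-fold higher, although with TMM scaling it was not called against monocyte and type 2-like cells. Ifngr1, which binds interferon gamma, went the other way, at 40.1 CPM against 301 CPM in cDC1 and 552 CPM in monocyte and type 2-like cells (7.51-fold and 13.8-fold lower). Ifnlr1, for type III interferon, had 0 UMIs.

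Genes of the secretory pathway were higher than in monocyte and type 2-like cells (11 of 24, 0 lower) and in B cells (18 of 26, 0 lower; 11 with TMM scaling). Against cDC1 2 of 22 were higher, and 7 without the 8 cells set apart. Over all genes 8.79% were higher against monocyte and type 2-like cells, 8.94% against B cells and 15.2% against cDC1. The count of 2 against cDC1 is therefore not above the share of all genes. Xbp1, the transcription factor of secretory cells, was at 322.5 CPM (275 to 376), with 362, 229, 356 and 341 CPM by library. It was 5.64-fold, 1.86-fold and 5.80-fold higher than in cDC1, monocyte and type 2-like cells and B cells, and with TMM scaling the second call was lost. Dnajb9, an endoplasmic reticulum co-chaperone that answers to XBP1, was at 108 CPM and was called against all 3. Hsp90b1, the chaperone of Toll-like receptors, was at 923 CPM, with 920, 909, 1017 and 841 CPM by library, 3.32-fold and 3.96-fold higher than in monocyte and type 2-like cells and in B cells. Sec11c, a signal peptidase subunit, was 3.99-fold and 2.69-fold higher in the same comparisons. The median log2 difference of the list was 0.55, 0.94 and 1.43, against 0.13, -0.04 and 0.29.

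Antigen presentation genes were lower than in cDC1. Of 10 compared class II genes 5 were lower, H2-Aa, H2-Ab1, H2-Eb1, Cd74 and Ciita, against 5.54% of all genes. The list's median log2 difference was -0.99, against 0.13 for all genes compared. Against monocyte and type 2-like cells 1 of 11 was lower and 0 higher. Against B cells 3 of 12 were lower and 2 higher (6 and 1 with TMM scaling). H2-Ab1, a class II chain, was at 2686, 2789, 3927 and 1962 CPM in libraries 1 to 4 and was 3.07-fold lower than in cDC1. It was not called against monocyte and type 2-like cells (3619 CPM) or B cells (3530 CPM). Ciita, the class II transactivator, was at 116 CPM and lower in all 3 comparisons (2.46-fold, 2.11-fold and 2.27-fold). Costimulatory genes were scarce, with 0 UMIs of Cd83, 2 each of Cd80 and Cd86 and 10 of Cd40. All 5 cells with Cd40 were among the 7 low-Siglech cells.

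BTK, the target of ibrutinib, had little RNA in pDC, whereas that of the adaptor Blnk was near the level of B cells. Btk was in 14 of 59 cells at 34.1 CPM (19.8 to 54.5), with 37.2, 30.6, 30.5 and 36.6 CPM by library, and was 3.32-fold lower than in B cells (113 CPM). Blnk, the adaptor that links SYK to BTK, was at 210 CPM (172 to 255), with 191, 229, 214 and 219 CPM, against 198 CPM in B cells. It was 20.2-fold higher than in monocyte and type 2-like cells and had 0 UMIs in cDC1 (at least 18.4-fold). Both genes varied little between libraries, although Btk rests on 17 UMIs in all.

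Of 20 compared genes of BTK and ITAM signalling 6 were higher and 4 lower than in B cells (4 and 5 with TMM scaling), where 8.94% of all genes were higher and 14.4% lower. The list's median log2 difference to B cells was 0.08, against 0.29 for all genes compared. Tyrobp (DAP12), the ITAM adaptor of Siglec-H, was at 4425 CPM, with 4196, 4302, 5372 and 4010 CPM by library, 6.49-fold higher than in cDC1 and 95.7-fold higher than in B cells. Fcer1g, the other ITAM adaptor, was at 1154 CPM and was 2.00-fold lower than in monocyte and type 2-like cells without being called. Fyn, a SRC-family kinase, was at 391 CPM and was higher against all 3 classes, by 14.6-fold, 5.92-fold and 15.2-fold.

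Of 18 homing receptor genes, 4 of 9 were higher than in cDC1 and 0 lower. Against monocyte and type 2-like cells 2 of 11 were higher and 4 lower, and against B cells 7 of 16 were higher and 2 lower (6 and 3 with TMM scaling). The median log2 difference was 0.97, 0.56 and 1.09, against 0.13, -0.04 and 0.29 for all genes compared. Ccr9 is described above. Cxcr3, which answers to interferon-induced chemokines, was in 20 cells at 56.1 CPM and 47.3-fold higher than in B cells. Ccr2 was 3.58-fold lower than in monocyte and type 2-like cells, whose gate could use it. Ccr7, the receptor that leads mature dendritic cells into nodes, had 18 UMIs, 15 of them in the Fscn1 cell.

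Cell cycle RNA was scarce. Mki67, Top2a and Stmn1 had 2, 1 and 3 UMIs, and 12 of 18 cell cycle genes were lower than in B cells, against 14.4% of all genes. Of 16 survival and death genes 5 were lower than in B cells, against 14.4% of all genes, and 11 were not called. Bcl2, an anti-apoptotic gene, had 4 UMIs in 4 cells, 16.1-fold lower than in B cells. Of 12 compared p53 target genes 0 were called against B cells in either direction (1 lower with TMM scaling). Of 12 ATF4 target genes, which answer to amino acid shortage, 0 were higher and 2 lower than in B cells. Both counts are near the 8.94% and 14.4% of all genes, and nothing is read from them.

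Outside the lists, the genes with the largest ratios among those higher against all 3 classes were Pir, Klk1b27, Cd8b1, Atp2a1, Ctsl, Lrp8, AC140186.1, Slc41a2, Slamf9 and Rab33b. Ctsl, the endolysosomal cathepsin L, was in 56 of 59 pDC at 1402 CPM (1300 to 1510), with 1223, 1085, 2147 and 1426 CPM by library. It had 0 UMIs in cDC1 (at least 123-fold) and was 23.7-fold higher than in monocyte and type 2-like cells and 246-fold higher than in B cells. Pir, an iron-binding nuclear protein, was at 156 CPM with 0 UMIs in cDC1 and in monocyte and type 2-like cells. Slamf9, a SLAM-family receptor, was at 152 CPM and 14.6-fold higher than in monocyte and type 2-like cells. Atp2a1, the calcium pump of fast skeletal muscle, was at 86.1 CPM and 128-fold higher than in B cells, a further gene known from muscle beside Cox6a2.

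The 5 genes outside the lists that were lower against all 3 classes with the largest ratios were Cotl1, Cd52, Evl, Tmsb10 and Bola2. Cotl1, Evl and Tmsb10 encode proteins that handle actin. Cotl1 was at 34.1 CPM against 236, 405 and 287 CPM in cDC1, monocyte and type 2-like cells and B cells. Tmsb10 was at 904, 1062, 539 and 890 CPM by library and was 5.72-fold, 3.38-fold and 2.33-fold lower. Cd52, a small surface glycoprotein, was 3.68-fold, 3.10-fold and 3.29-fold lower.

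Genes with the largest ratio between libraries rested on few cells. Ccl5 was at 1133 CPM in library 4 against 7.64 to 40.7 CPM elsewhere, and 89.3% of its 103 UMIs came from the Fscn1 cell. The largest share of a gene's UMIs from 1 cell was 74.3% for Tbc1d4, 60% for Sct (the hormone secretin), 65.2% for Cd63, 94.3% for Ccl8 and 100% for Cd209b. These ratios therefore describe single cells more than libraries. Sct, described in mouse pDC, was in 9 cells with 0 UMIs in library 2.

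The 7 low-Siglech cells carried another set of genes. Klf4, a factor of monocytes and type 2 conventional dendritic cells, was in 6 of 7 cells at 440 CPM (4 of 51 and 15.4 CPM in the main body). Cx3cr1, the fractalkine receptor, was in 4 of 7 and 0 of 51. Spi1 (PU.1) was in 7 of 7 and 23 of 51 (813 against 77.0 CPM). These 3 genes are known from the myeloid lineage. S100a4, a calcium-binding protein, was in 7 of 7 and 3 of 51 (999.9 against 10.3 CPM), Sema4a in 6 and 0, Plbd1 in 6 and 2, Lgals3 in 7 and 12 and Ms4a6c in 7 and 22.

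The same 7 cells kept part of the pDC genes. Tcf4 was in 7 of 7 at 1275 CPM against 2109 CPM in the main body, Runx2 in 6 and Kmo in 6. Ccr9 was in 3 of 7 at 209 CPM against 1147 CPM, and Dntt was in 0 of 7 against 24 of 51. Siglech was low by the split itself. Tcf4 and Runx2 are genes of the rule, so their detection in these 7 cells was partly set by the choice of cells. The low cells had a median of 10620 UMIs against 8062 in the main body. One of them, from library 1, held 18 UMIs of the macrophage gene C1qa and 17 of Lyz2, and Scrublet did not mark it. The 6 listed markers of transitional dendritic cells summed to 306.5 CPM in all pDC, 30.8 CPM in the main body and 1398 CPM in the monocyte gate, with Cd5 at 0. No cell type is named for these 7 cells.

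The Fscn1 cell held 18544 UMIs, 36 of them of Siglech, with 21 of Tcf4 and 44 of Ly6c2. Beside Fscn1 it held 15 UMIs of Ccr7, 92 of Ccl5, 14 of Id2, 22 of Relb and 18 of Cacnb3, genes of mature dendritic cells. The mature dendritic cell markers summed to 218 CPM in all pDC and to 18.0 CPM in the main body. Scrublet did not mark this cell as a doublet.

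Without the 8 cells, several levels moved. Irf8 was then at 3110 CPM, Ly6d at 3523 CPM, Bst2 at 4426 CPM and Ccr9 at 1147 CPM. Klk1 was at 618 CPM, Cox6a2 at 1275 CPM, Iglc3 at 880.2 CPM, Pld4 at 729 CPM and Xbp1 at 382 CPM. Tyrobp was at 4886 CPM, Ly6c2 at 2728 CPM and Runx2 at 644 CPM, whereas Fcer1g was at 1019 CPM, H2-Ab1 at 2620 CPM and Ccl5 at 18.0 CPM. Ifitm3 was at 43.6 CPM in place of 148 CPM. Calls moved as well. Among genes no longer called against B cells were Syk, Spi1, Klf4, Pik3ap1, Ifitm3 and Tcf3, and Batf3, Relb and Il4i1 became lower. Against cDC1 Stat3 and Fcer1g were no longer called, Slc15a4 could no longer be compared and Spi1 became lower. Against monocyte and type 2-like cells Cd209d was no longer called, and Klf4, Relb and Fcer1g became lower. Markers of monocytes summed to 621 CPM in all pDC and 298 CPM in the main body, against 14043 CPM in the monocyte gate. That gate could use Lyz2, Csf1r, Ccr2 and Ms4a6c of these markers, so its value was partly set by the gate. Markers of type 2 conventional dendritic cells summed to 1040 CPM in all pDC and 1093 CPM in the main body, so this sum did not fall. It was 1098 CPM in the monocyte gate, which could use Cd209a of these markers. Clec12a is both in this list and among the listed pDC receptors, and Cd209a was in 31 of 59 pDC. The sum is therefore not particular to type 2 cells. Clec4a4 and Ltb4r1 had 0 UMIs in pDC. The neutrophil genes S100a8 and S100a9 had 0 UMIs, and erythroid genes summed to 207, 168, 10.2 and 0 CPM in libraries 1 to 4.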

How the data were processed

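Single-cell RNA-seq was made from lymph nodes of 4 mice. The deposited values are raw UMI counts per gene and barcode, made with cellranger 5.0.0 per the file headers and on mm10 per the submitters' processing notes. The annotation is not given in the sources used here. The matrix holds 31053 genes and 30824 barcodes, with 47794614 entries above 0, and whether depth was evened between libraries is not stated. The library numbers were not tied to mice, so samples were put in no group.

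The pDC, the gene lists and the comparison classes were chosen with earlier results of these data known. Barcodes over 50000 UMIs were left out of the comparison classes, and this limit and the main body of 51 cells were set after the values were seen. Intervals are exact Poisson for CPM and Clopper-Pearson for shares (95%), a count of 0 allows 3 counts over the class, and both cover counting error only. Named genes are list members, the 10 highest and 5 lowest outside the lists in all 3 comparisons, and the 10 with the largest ratio between libraries. Cell type markers and the genes of the cells set apart were named after their values were seen. Promoters came from RefSeq (GRCm38.p6), and gene positions from GENCODE on the same build. Alternatives were other gates, filters, folds and minimums, TMM scaling (edgeR 4.0.16, R 4.3.3), thinning to 1500 UMIs, Scrublet (scanpy 1.11.5) and leaving out libraries. Counting was done in Python 3.11.15 with numpy 2.4.6, scipy 1.17.1 and pandas 2.3.3, and the calling rule was tested on simulated data. Some members of the lists are not reported here by name.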

Additional observations from a re-analysis of the deposited data

How the results depend on the processing

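No paired analysis was possible because the libraries are not tied to mice or groups. The counts of called genes moved with the filters, and the shares of pDC moved with the stricter cell filter. With 500 or more genes and no more than 5% mitochondrial UMIs the share in library 3 was 0.0598% (2 of 3347) and that in library 4 was 0.0526% (2 of 3803), the latter within its own counting interval, and genes higher in pDC numbered 403 against B cells, 75 against monocyte and type 2-like cells and 86 against cDC1, with 265 lower than in monocyte and type 2-like cells. With a 2-fold rule 180 were higher and 296 lower than in monocyte and type 2-like cells, and 59 lower than in cDC1. With a minimum of 1 count 4212 were lower than in B cells, 891 higher and 974 lower than in monocyte and type 2-like cells, and 1327 higher and 368 lower than in cDC1. TMM scaling left 640 higher than in B cells. Thinned to 1500 UMIs, which compares fewer genes, 365 were higher than in B cells, 53 higher and 74 lower than in monocyte and type 2-like cells, and 64 higher and 25 lower than in cDC1. Leaving out 1 library gave 1117 to 1233 higher and 1700 to 1856 lower against B cells, 292 to 324 and 389 to 524 against monocyte and type 2-like cells, and 271 to 377 and 81 to 153 against cDC1, where 81 was without library 3. The cause of the other moves was not tested. Over these and the settings chosen after seeing the data, 94 counts and shares held and 20 moved, and 521 gene levels held and 169 moved. A level or share held if it stayed within its main counting interval, and a count of called genes if within 1.5-fold. Removing Scrublet doublets, the 2-fold rule, the minimum of 1 count and keeping comparison cells over 50000 UMIs left the pDC counts unchanged. Each of these settings therefore gave 46 levels held and 0 moved, which says nothing about how stable the levels are. The 59 cells and 499255 UMIs limit what can be seen of genes below about 6.01 CPM.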

Other observations

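Cdh5, the cadherin of endothelial junctions, was detected in 25 of 59 pDC (42.4%), and in 0 cells of the cDC1, monocyte and CD4 T cell gates and in 0.238% of B cells. Its libraries held 69.1, 76.4, 71.2 and 85.3 CPM, and 24 of the 25 cells lay in the main body. The 7 listed markers of stroma and endothelium summed to 128 CPM in pDC, between 107 and 183 CPM in the 4 libraries, and 3 of the 7 had a UMI. These genes were looked at after their values were seen.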
